A study of Rattus norvegicus with 8 samples.

Results

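The oxygen sensor genes described here are Egln1, Egln2 and Egln3, which encode the prolyl hydroxylases PHD2, PHD1 and PHD3, Hif1an, which encodes the asparaginyl hydroxylase FIH, and Vhl, which encodes the substrate receptor of the ubiquitin ligase that takes up hydroxylated HIF. Each was chosen by its symbol in the platform annotation, and each of the 5 had 1 probe set among the 18166 genes measured with a single symbol. The signals came from 8 Affymetrix arrays of total RNA from alveolar type II cells, the surfactant-secreting cells of the lung, of male Sprague Dawley rats. Both groups were rat cells without any labelled genetic change. They were incubated for 3 h after isolation with an adenovirus at a multiplicity of infection of 20, and were then plated on a collagen and Matrigel mix with rat serum in the medium until RNA was taken 24 h later. The virus carried green fluorescent protein in the control group (AdGFP, 4 wells) and a constitutively active mutant HIF1a in the other (AdHIF1a, 4 wells), so the controls had also received an adenovirus. Each rat supplied an AdGFP and an AdHIF1a well on a separate day, so the wells of 4 rats form 4 pairs and rat and day cannot be told apart. The promoter and species of the transgene, the mutated residues, the oxygen level of the culture and the ages of the rats are not given in the labels or the series' design.

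HIF is a pair of an alpha and a beta subunit that switches on genes of the response to low oxygen. In the presence of oxygen, iron and 2-oxoglutarate, the EGLN enzymes hydroxylate prolines of the alpha subunit, VHL binds the hydroxylated protein, and the ligase built on it sends HIF alpha to the proteasome, while FIH hydroxylates an asparagine and so blocks the coactivators CBP and p300. Egln1 and Egln3 are known targets of HIF themselves, so that HIF raises enzymes of its own destruction. The comparison of AdHIF1a with AdGFP asks how far the mRNA side of this negative feedback is seen in type II cells. Only mRNA was measured, so whether the products act back on HIF, here a constitutively active mutant, was not tested.

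The windows around the annotated start sites of the 3 genes that rose are shown because that of Egln1 held core letters of the HIF response element and those of Egln3 and Vhl did not. Each runs from 250 bases before to 50 bases after the start (RefSeq, build GRCr8), 5′ to 3′ on the strand of the gene, and capitals mark ACGTG or GCGTG on either strand, the core letters that HIF can bind. All 5 genes matched an entry, the first entry of each symbol was used, and other start sites were not examined.
Egln1 (chr19:69804632-69804931, minus strand): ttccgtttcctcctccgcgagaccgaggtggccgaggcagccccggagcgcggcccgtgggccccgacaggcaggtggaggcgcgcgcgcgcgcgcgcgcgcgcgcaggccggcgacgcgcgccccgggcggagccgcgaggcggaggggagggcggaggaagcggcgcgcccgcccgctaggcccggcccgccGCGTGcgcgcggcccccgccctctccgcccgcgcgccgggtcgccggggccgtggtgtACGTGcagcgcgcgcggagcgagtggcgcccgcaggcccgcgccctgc
Egln3 (chr6:77410966-77411265, minus strand): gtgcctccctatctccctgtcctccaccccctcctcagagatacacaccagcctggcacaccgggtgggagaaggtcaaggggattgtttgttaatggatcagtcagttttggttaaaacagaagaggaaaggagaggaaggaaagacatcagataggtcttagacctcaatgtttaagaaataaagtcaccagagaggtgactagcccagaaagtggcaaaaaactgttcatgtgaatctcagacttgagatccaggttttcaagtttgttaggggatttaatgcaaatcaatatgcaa
Vhl (chr4:148327849-148328148, plus strand): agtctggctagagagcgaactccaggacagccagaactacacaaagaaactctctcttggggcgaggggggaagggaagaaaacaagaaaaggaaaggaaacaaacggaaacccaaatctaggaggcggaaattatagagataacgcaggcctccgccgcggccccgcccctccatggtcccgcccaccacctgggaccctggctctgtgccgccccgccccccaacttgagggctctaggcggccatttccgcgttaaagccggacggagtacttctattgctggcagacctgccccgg
The Egln1 window held ACGTG at bases 3 to 7 after the start, counted from the start as base 1, and GCGTG at bases -56 to -52, both on the strand of the gene. The ACGTG there was not part of CACGTG, the E-box letters that contain it. The windows of Egln3 and Vhl, and those of Egln2 and Hif1an, held neither on either strand, which says only that these letters are not in these windows. Of 33469 such rat windows, 19.3% held ACGTG, 29.7% held GCGTG and 41.6% held at least 1 of them. Among the 14564 windows of genes tested here the shares were 21.8%, 39.4% and 50.8%. The Egln1 window was 84.7% G and C with 64 CpG pairs, that of Egln2 78.3% with 44, that of Vhl 59.3% with 18, that of Hif1an 57.7% with 15 and that of Egln3 44.7% with 1, beside a median of 51.7% over all windows.

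The values are log2 signals on a scale that the arrays share, running from 1.42 to 13.57, with array medians between 5.00 and 5.20. Across genes, Pearson's r between arrays was 0.991 to 0.996 within a virus and 0.977 to 0.986 between viruses, and no array stood apart. Each difference is the AdHIF1a value less the AdGFP value, in log2 units ± SE, from a limma fit of all 18166 genes with the rat as a block, and genes count as called where the adjusted p (Benjamini-Hochberg) is under 0.05. At that threshold 8.68% of all genes were higher (1576) and 11.5% lower (2098) in AdHIF1a wells, and 20.2% were called in either direction. With each array centred on its own median the numbers were 936 higher and 2161 lower. The exact sign-flip permutation test over 4 pairs, given beside it, is two-sided and cannot go below p = 0.125. Signals of different genes come from different probes, so their levels are not compared with each other.

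Of the 5 genes, Egln1, Egln3 and Vhl rose and Egln2 and Hif1an were not called, or 3 of 5 higher where 8.68% of all genes were higher. The same 3 genes had every AdHIF1a well above every AdGFP well, which 10.3% of all genes showed.

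Egln3 encodes PHD3, a prolyl hydroxylase whose mRNA hypoxia raises. Its log2 signals in the AdGFP wells of rats 1 to 4 were 10.91, 10.28, 9.83 and 10.01, and in their AdHIF1a wells 12.42, 12.45, 12.25 and 12.37. The AdGFP wells were spread over 1.08 log2 units, with rat 1 the highest, while the AdHIF1a wells lay within 0.20 of each other, and the groups did not overlap. Egln3 rose by 2.12 ± 0.15, or 4.33-fold (95% interval 3.37 to 5.57, limma adjusted p = 0.000257, sign-flip p = 0.125 by exact permutation, higher in 4 of 4 rats). The smallest change was in rat 1 (1.51, 2.85-fold), whose control well was the highest, and the largest in rat 3 (2.42, 5.35-fold), whose control well was the lowest. A change is the AdHIF1a well less its control, so with AdHIF1a wells this close together its order largely mirrors the controls by arithmetic. It ranked 67th from the top among the 18166 differences. In AdHIF1a wells the probe set lay above 99.6% to 99.7% of the probe sets of its array, and above 92.2% to 97.1% in AdGFP wells, and whether it approached saturation there was not tested.

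Egln1 encodes PHD2, the main prolyl hydroxylase of HIF1a in most cells. Its log2 signals in the AdGFP wells of rats 1 to 4 were 10.13, 9.84, 9.79 and 9.87, and in their AdHIF1a wells 11.84, 11.73, 11.68 and 11.92. Both groups were tight, spanning 0.34 and 0.24 log2 units, and did not overlap. Egln1 rose by 1.89 ± 0.09, or 3.69-fold (3.20 to 4.26, limma adjusted p = 4.02e-05, sign-flip p = 0.125 by exact permutation, higher in 4 of 4 rats), and within rats by 1.71, 1.89, 1.89 and 2.05, the 85th largest increase. Of its squared deviations from the mean over the 8 wells, 98.6% lay between the viruses, 1.05% between rats and 0.401% was left over. The shares for Egln3 were 92.8%, 4.49% and 2.71%. RefSeq lists 6 pseudogenes named for rat Egln1 and 0 for each of the other 4 genes. The probe sequences were not used here, so how much of the Egln1 signal these copies share was not tested.

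Vhl, the receptor subunit that recognises hydroxyproline, rose less and less evenly. Its log2 signals in the AdGFP wells of rats 1 to 4 were 7.90, 7.76, 7.96 and 8.07, and in their AdHIF1a wells 8.70, 8.34, 8.14 and 8.75. The lowest AdHIF1a well (8.14, rat 3) lay just above the highest AdGFP well (8.07, rat 4). Vhl rose by 0.56 ± 0.11, or 1.47-fold (1.22 to 1.78, limma adjusted p = 0.0139, sign-flip p = 0.125 by exact permutation, higher in 4 of 4 rats), and by 0.80, 0.58, 0.18 and 0.68 in rats 1 to 4. The order of the rats was not that of Egln3, since rat 1 had the largest change of Vhl and the smallest of Egln3. The call of Vhl was lost without rat 2 (0.55, limma adjusted p = 0.0512) or rat 4 (0.52, adjusted p = 0.0651), and over the 15 alternatives its adjusted p ran from 0.00719 to 0.0651.

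**Figure D1:**
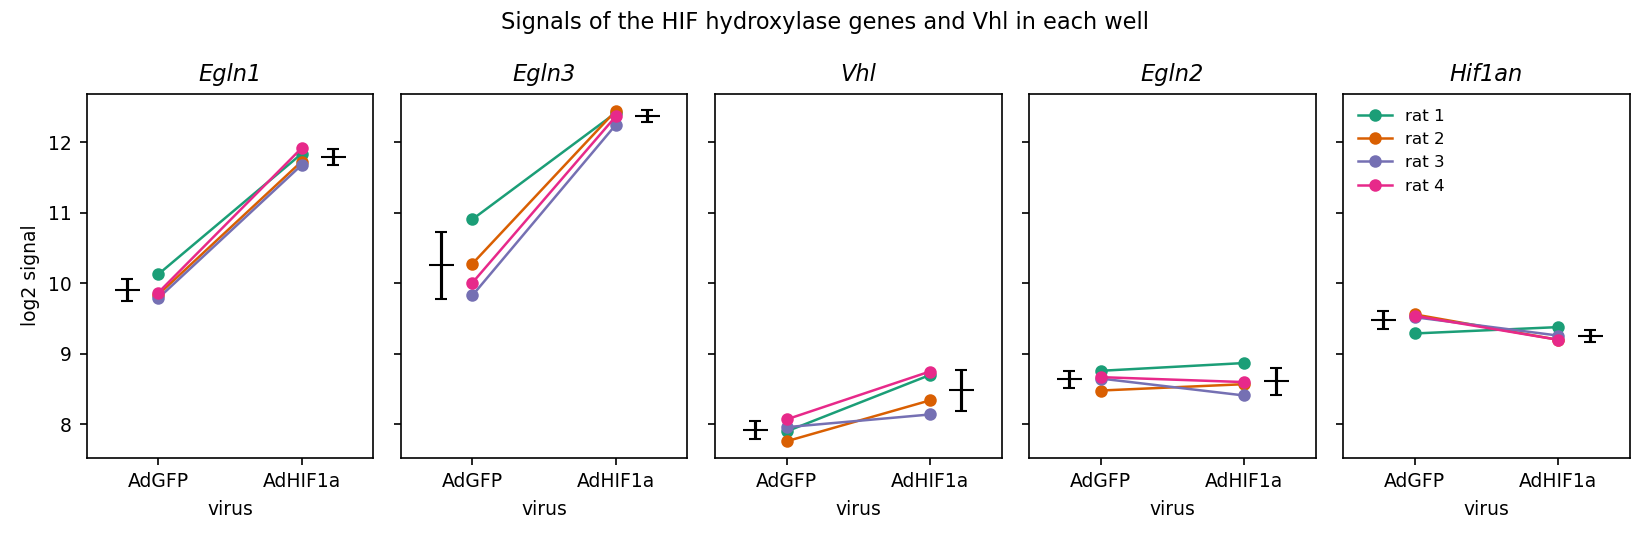
Log2 signal of the 5 genes (vertical axis) in the AdGFP and AdHIF1a wells (horizontal axis), a line joining the wells of 1 rat, with black bars for the mean and SD of 4 wells. The lines of Egln1 and Egln3 rise steeply in all 4 rats and the AdHIF1a wells of Egln3 meet between 12.25 and 12.45, Vhl rises less, and the lines of Egln2 and Hif1an cross.

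Egln2 encodes PHD1, the prolyl hydroxylase that is not counted among the usual HIF targets. Its log2 signals in rats 1 to 4 were 8.76, 8.48, 8.65 and 8.67 in AdGFP wells and 8.87, 8.57, 8.41 and 8.60 in AdHIF1a wells. The groups overlapped, and the wells were higher in rats 1 and 2 (0.11 and 0.09) and lower in rats 3 and 4 (-0.24 and -0.07). The difference was -0.03 ± 0.09 (limma adjusted p = 0.874, sign-flip p = 0.875 by exact permutation). The 95% interval of the ratio ran from 0.845 to 1.14, so a change larger than that in either direction lay outside it. Of the squared deviations of Egln2 from its mean, 72.8% lay between rats, 0.996% between the viruses and 26.2% was left over. These shares are a description, and whether the rats differed in Egln2 was not tested.

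Hif1an encodes FIH, which hydroxylates the asparagine of the transactivation domain. Its log2 signals in rats 1 to 4 were 9.29, 9.56, 9.52 and 9.54 in AdGFP wells and 9.38, 9.20, 9.26 and 9.20 in AdHIF1a wells. The AdHIF1a well was the lower in rats 2, 3 and 4 (-0.36, -0.26 and -0.34) and the higher in rat 1 (0.09), and the groups overlapped only through rat 1, whose control well was the lowest of the 4. The difference was -0.22 ± 0.10, a ratio of 0.86 (95% interval 0.73 to 1.01, limma adjusted p = 0.189, sign-flip p = 0.25 by exact permutation, lower in 3 of 4 rats). Without rat 1 it was -0.32 ± 0.08 and passed the threshold (limma adjusted p = 0.0423), and over the 15 alternatives the adjusted p ran from 0.0423 to 0.475.

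**Figure D2:**
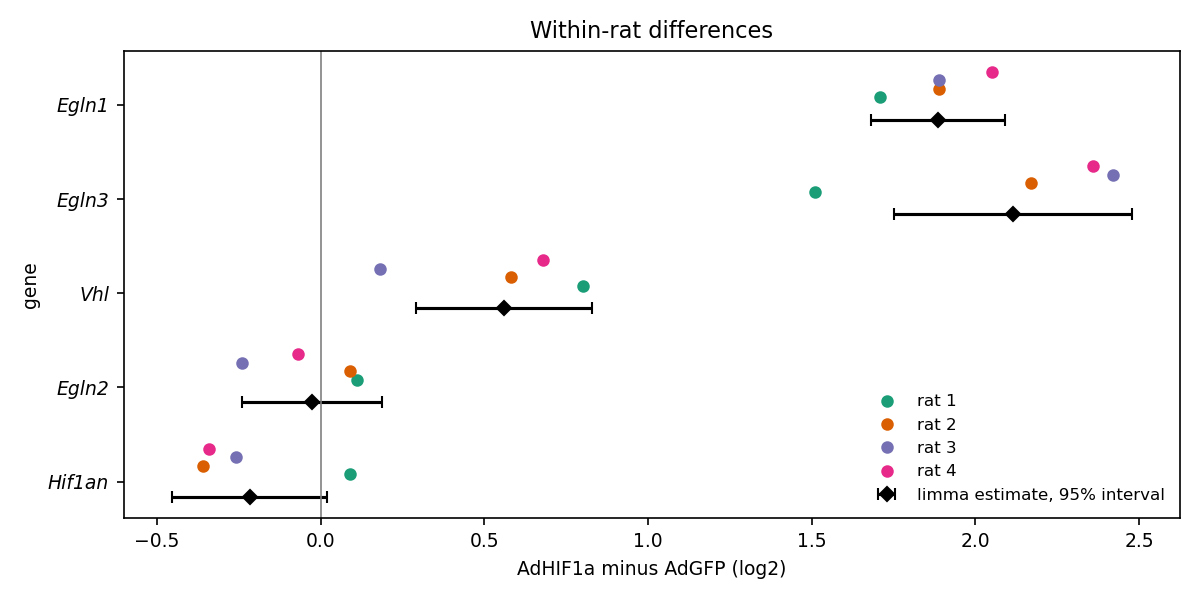
AdHIF1a minus AdGFP in log2 units (horizontal axis) for each gene (vertical axis), with a coloured point for each rat and a black diamond and bar for the limma estimate and its 95% interval. The intervals of Egln1, Egln3 and Vhl lie to the right of 0, and those of Egln2 (-0.24 to 0.19) and Hif1an (-0.46 to 0.02) include it.

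Within rats, the changes of the 3 prolyl hydroxylase genes differed. The change of Egln1 exceeded that of Egln2 by 1.60, 1.80, 2.13 and 2.12 in rats 1 to 4, and that of Egln3 exceeded it by 1.40, 2.08, 2.66 and 2.43. Egln3 changed more than Egln1 in rats 2, 3 and 4 (by 0.28, 0.53 and 0.31) and less in rat 1 (by 0.20), so the order of these 2 was not the same in all rats. The change of Vhl was smaller than that of Egln1 in 4 of 4 rats, by 1.33 on average, and larger than that of Hif1an in 4 of 4, by 0.78. These differences between genes are descriptions of 4 rats and were not tested, and folds of different probes can be compressed to different degrees.

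The measured genes above the median signal of all genes whose log2 signals ran most like those of each member over the 8 arrays are given by Pearson's r, as a description. All 8 arrays share the virus contrast, so genes that rose or fell with it correlate through it. The genes named here also have the highest r among many over only 8 arrays, so a high r can come from that choice alone. For Egln1 they were Plod1, a collagen lysyl hydroxylase (r = 0.999), the lipoprotein receptor gene Vldlr (0.998) and Smtnl2 (0.998), which differed by 1.65, 2.83 and 3.14 between the viruses. For Egln3 they were Vegfa, the endothelial growth factor (0.995), Dlc1 (0.994) and Ptges, a prostaglandin E synthase (0.993), with differences of 1.52, 1.31 and 2.57. Vhl ran most like Fcrlb (0.988), Dxo (0.988) and Obsl1 (0.986), with smaller differences of 0.76, 0.40 and 0.32. Hif1an ran most like Hsd17b10, a mitochondrial dehydrogenase (0.996), Rassf6 (0.985) and Suclg1, a subunit of succinyl-CoA ligase (0.984), which differed by -0.36, -0.52 and -0.44. Egln2 ran most like Lamtor2 (0.983), Npw (0.975) and Ints10 (0.952), which differed by 0.00, -0.04 and -0.04. Among the members, Egln1 and Egln3 ran together (r = 0.98), and Egln2 ran with neither (-0.03 and -0.02).

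VHL works in a ligase with several partners, and none of those measured was called. Of 8 partners and regulators of that ligase measured (the elongins Elob and Eloc, the scaffold Cul2, the RING subunit Rbx1, and Nedd8, Ube2m, Dcun1d1 and Cand1 of the neddylation cycle), 0 were called in limma, beside 20.2% of all genes, and 1, Dcun1d1, had an unadjusted p under 0.05. With 8 genes a count of 0 is not far from that share. Their differences ran from -0.23 to 0.13 with a median of -0.01, beside -0.005 over all genes. Dcun1d1, a co-factor of cullin neddylation, differed by -0.23 ± 0.08 (limma adjusted p = 0.0758) and passed in 4 of the 15 alternatives, while Elob differed by -0.15 ± 0.09 (adjusted p = 0.292).

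Among 18 measured genes that act on the stability of the hydroxylases, of VHL or of HIF1a, 3 rose and 1 fell (22.2% called, beside 20.2% of all genes, median 0.01). Siah2, a ubiquitin ligase that targets PHD3 and PHD1 for degradation, gave AdGFP signals of 7.86, 7.89, 7.47 and 7.70 and AdHIF1a signals of 8.40, 8.51, 8.46 and 8.50 in rats 1 to 4. It rose by 0.74 ± 0.10, or 1.67-fold (1.42 to 1.96, limma adjusted p = 0.00257), with no overlap between the groups. Wsb1, a ligase subunit reported to target VHL, gave 10.95, 10.57, 10.28 and 10.36 in AdGFP wells and 11.32, 11.35, 11.24 and 11.39 in AdHIF1a wells. It rose by 0.79 ± 0.12, or 1.72-fold (1.41 to 2.10, adjusted p = 0.00462), and, like Egln3, had its highest control well in rat 1. The p53 ligase gene Mdm2 rose by 0.89 ± 0.15 and the deubiquitinase gene Usp8 fell by 0.53 ± 0.12 (adjusted p = 0.0199), a call lost without rat 2 (-0.45, adjusted p = 0.0826) or rat 4 (-0.46, 0.0883). The same wells were higher in Egln1, Egln3 and Vhl and in Siah2 and Wsb1, whose products act against PHD3 and VHL. Siah1, outside the naming rule, was not called (0.09, limma adjusted p = 0.586). With 22.2% of the list called beside 20.2% of all genes, these rises are no result about the list. Whether the proteins act on each other here was not tested.

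Of 10 measured genes of HIF subunits, transcriptional restraints and the coactivator CBP, 4 rose and 2 fell (60% called, beside 20.2% of all genes, median -0.01). Among restraints, Bhlhe41, a repressor of the basic helix-loop-helix family (1.70 ± 0.13, 3.25-fold), and Cited2, which competes with HIF for p300 (1.33 ± 0.13, 2.52-fold), rose. The inhibitory subunit gene Hif3a (1.22 ± 0.12, 2.33-fold) and the coactivator gene Crebbp, outside the naming rule (0.37 ± 0.08, limma adjusted p = 0.0204), also rose. Bhlhe40 (0.13, adjusted p = 0.279) and Cited4 (-0.27, adjusted p = 0.22), in the list but outside the naming rule, were not called, so the restraints did not rise as a class. The call of Crebbp was lost without rat 2, 3 or 4 (0.37, 0.32 and 0.39, adjusted p = 0.0856, 0.0802 and 0.0714), after median centring (0.29, 0.128) and with the variance prior from all probe sets (0.0506). Hif1a itself differed by -0.46, -0.36, -0.55 and -0.55 in rats 1 to 4 on its rat probe set (-0.48 ± 0.08, adjusted p = 0.00624). Whether that probe set reads the transgene is not known, so it does not check the labels. Arnt2 fell by 0.53 ± 0.08, and neither Arnt, the beta subunit (-0.15 ± 0.09, adjusted p = 0.299), nor Epas1, the HIF2 alpha subunit that the same hydroxylases act on (-0.33 ± 0.11, adjusted p = 0.086), was called. Epas1 passed in 4 of the 15 alternatives, with an adjusted p of 0.0275 with array weights.

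The EGLN enzymes and FIH belong to the oxygenases that use iron and 2-oxoglutarate, and of 45 other measured members of that class 16 rose and 6 fell, or 48.9% called beside 20.2% of all genes, with a median of 0.09 and a range from -1.62 to 3.31. The collagen lysyl hydroxylase Plod2 gave 7.62, 7.62, 7.0 and 6.55 in AdGFP wells and 10.54, 10.55, 10.41 and 10.54 in AdHIF1a wells of rats 1 to 4. It rose by 3.31 ± 0.18, or 9.93-fold (7.41 to 13.3, limma adjusted p = 7.45e-05), and the AdHIF1a wells lay far closer together than the controls. Plod1 (1.65 ± 0.09), the collagen prolyl hydroxylase subunit gene P4ha2 (1.03 ± 0.08) and the histone demethylase gene Kdm4b (1.03 ± 0.08) also rose. The collagen prolyl 3-hydroxylase genes P3h1 (-0.65 ± 0.11), P3h2 (-1.62 ± 0.23) and P3h3 (-0.52 ± 0.10) fell, and were named after their values were seen. P3h3 was not called without rat 4 (-0.45, limma adjusted p = 0.0531). P4htm, a transmembrane prolyl hydroxylase that can act on HIF alpha, gave 5.14, 5.45, 5.52 and 5.28 in AdGFP wells and 5.17, 5.13, 4.91 and 5.15 in AdHIF1a wells, close to the array medians, and differed by -0.26 ± 0.12 (adjusted p = 0.177).

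The hydroxylases consume 2-oxoglutarate and are inhibited by succinate and fumarate. Of 22 measured genes that make or use these metabolites, 2 rose and 6 fell, with a median of -0.26. That is 9.09% higher beside 8.68% of all genes, and 27.3% lower beside 11.5%. The share that rose is near that of all genes, so the rises are no result about the list. The alanine transaminase genes Gpt (1.87 ± 0.10, limma adjusted p = 7.45e-05) and, outside the naming rule, Gpt2 (0.75 ± 0.15), which form 2-oxoglutarate or glutamate, rose. Glud1, glutamate dehydrogenase (-0.59 ± 0.10), Idh2, a mitochondrial isocitrate dehydrogenase (-0.51 ± 0.09), and Sdhb, a subunit of succinate dehydrogenase (-0.46 ± 0.08), fell, the last without a call when rat 4 was left out (-0.42, adjusted p = 0.0517). The number called in this list was 13 without rat 1, 5 without rat 2 or rat 3 and 4 without rat 4, and 5 with the variance prior taken from all probe sets.

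**Figure D3:**
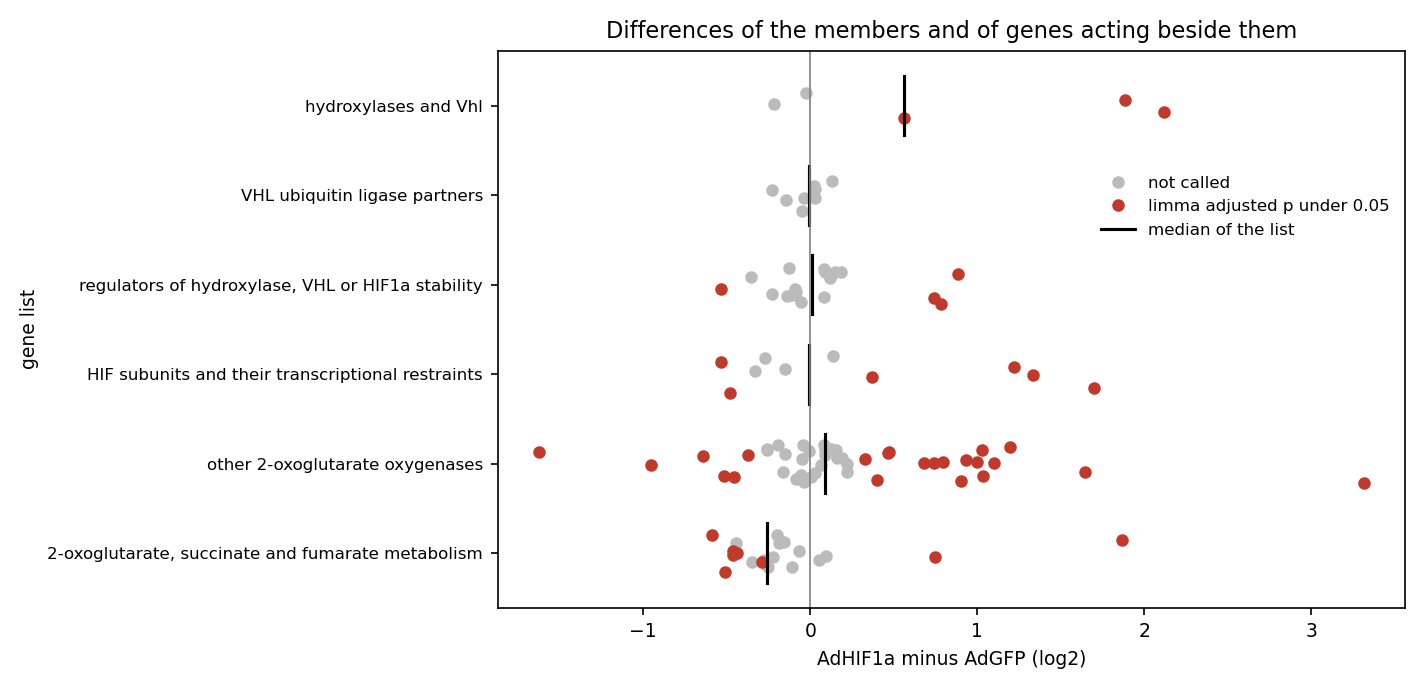
AdHIF1a minus AdGFP in log2 units (horizontal axis) for the 5 genes and for 5 lists of genes that act beside them (vertical axis), a point per gene, red where limma's adjusted p was under 0.05, with a black line at the median of each list and points spread vertically for legibility. The VHL partners lie between -0.23 and 0.13 with 0 called, while the other oxygenases reach from -1.62 to 3.31.

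The label of type II cells was set beside 9 measured markers. Sftpc gave 12.34 ± 0.17 in AdGFP wells and 12.62 ± 0.13 in AdHIF1a wells (SD, n = 4), and the 9 probe sets included 0 that lay below the array median on all arrays. Sftpc, Sftpb and Sftpa1 rose and 5 fell, among them Napsa by 1.52 (2.87-fold), Slc34a2 by 0.82 (1.77-fold) and Lpcat1 by 0.80 (1.74-fold), with a median difference of -0.39 over the list. The calls of Sftpc (limma adjusted p = 0.0425), Abca3 (lower by 0.39, 0.034) and Slc34a2 (0.0262) were weak. That of Sftpc was lost whichever rat was left out (0.0687 to 0.141). Abca3 lost its call without rat 1, 2 or 4 (0.0597, 0.134 and 0.144), and Slc34a2 without rat 1, 3 or 4 (0.087, 0.0923 and 0.0846). The summed signal of the list, which the brightest probe sets carry, ran from 13.90 to 14.35 in AdGFP wells and from 13.91 to 14.34 in AdHIF1a wells. Of the 8 type I cell markers, 7 were lower in AdHIF1a wells (Rtkn2 not without rat 2, 3 or 4, limma adjusted p = 0.0746, 0.107 and 0.102), with a median difference of -1.21 and summed signals of 13.62 to 14.12 in AdGFP and 12.45 to 13.17 in AdHIF1a wells. Only 1 of these 8, Rtkn2, lay below the array median on all arrays, so the count of such markers does not tell type II from type I cells. Fewer cells of a type and less RNA per cell cannot be told apart in such bulk samples. The sum of the macrophage markers (12.75 to 13.04 in AdGFP and 13.00 to 13.27 in AdHIF1a wells, 0 of 8 higher and 3 lower) was carried by Lyz2 (12.59 and 12.89 on average), while 2 of the 8 lay below the array median on all arrays. Lyz2 was not called (0.30, limma adjusted p = 0.0739) but was higher in 4 of 4 rats, unlike the 3 lower markers. This sum therefore follows Lyz2 and is not a measure of macrophage content. The sum of the club cell markers (12.65 to 12.76 and 12.47 to 12.83, 0 of 4 higher and 1 lower) was nearly that of Scgb1a1 alone (12.65 and 12.68), and 2 of the 4, Scgb3a2 and Cyp2f4, lay below the array median on all arrays. The sums, AdGFP first, were 7.48 to 7.59 and 7.34 to 7.56 for fibroblast, 7.84 to 8.25 and 7.33 to 8.11 for other leukocyte, 6.06 to 6.30 and 6.25 to 6.47 for endothelial and 6.19 to 6.54 and 6.09 to 6.24 for ciliated cell markers, with 1 of these genes called, the ciliated marker Ccdc78 (-0.28, limma adjusted p = 0.0436), which was not called whichever rat was left out (0.0535 to 0.187). The calls of the 3 lower macrophage markers were lost without rat 1 or 2 (Mrc1, limma adjusted p = 0.0778 and 0.0607), rat 2 or 3 (Adgre1, 0.0585 and 0.0615) and rat 1, 2 or 4 (Csf1r, 0.0608, 0.101 and 0.10), and that of the lower club marker Cyp2b1 without rat 2 or 4 (0.0922 and 0.0518). Leaving out a rat also gained calls. Without rat 1, the macrophage marker Cd68 was called higher (0.33, limma adjusted p = 0.0366) and the ciliated marker Rsph1 lower (-0.53, 0.0129). Without rat 3, the type I marker Cav1 was called lower (-1.01, 0.00593). In rats 1 to 4, Cd68 differed by -0.91, 0.32, 0.30 and 0.38, and the macrophage marker Msr1 by -1.14, 0.02, 0.36 and 0.12. Sums over different probes are not compared between cell types. The part of these differences in the values of Egln1, Egln3 and Vhl was not tested.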

How the data were processed

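RNA from 8 wells (4 rats, 1 AdGFP and 1 AdHIF1a well each) was measured on Affymetrix arrays. The authors deposited log2 signals for 36685 probe sets, made with Affymetrix Expression Console per the submitters' processing notes. The sources used here do not name the algorithm, its version or the genome build, detection calls were not used, and the values themselves show the log2 scale. Folds of low signals are compressed, and precision is limited by the number of arrays.

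The platform annotation named the probe sets: 18511 had 1 gene symbol, 575 several and 17599 none. Gene identifiers of 18394 matched RefSeq (GRCr8) and changed 0 symbols. The probe set with the highest mean stood for a gene. The 18166 genes were fitted with limma 3.58.1 in R 4.3.3 (lmFit, eBayes) and a fixed block for the rat, because the series' design pairs the wells. Across genes, deviations from the group means correlated within a rat at 0.18 to 0.26, against -0.22 to 0.08 between rats. Deviations cancel out within a group, which pushes the between-rat values down, so the contrast overstates the pairing. With the rat as a random block the consensus correlation was 0.143. At most 1.95% of values were equal in any pair of arrays. The fit was checked on simulated pairs with known differences.

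The members and 5 lists were chosen with earlier results of these data known. Of 123 list entries, some of them older names of the same gene, 103 different genes were measured. In each list the 4 called genes with the smallest adjusted p were named, or the 2 with the smallest p where fewer than 2 were called, and Hif1a, P4htm, Siah2, Arnt and Epas1 in any case. For each member the 3 genes most correlated with it over the 8 arrays were also named.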

Additional observations from a re-analysis of the deposited data

Results flagged for a closer look

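The highest or lowest of the 4 wells of a group stood far from the other wells for 7 of the 96 sets of 4 values examined (each gene's AdGFP wells, AdHIF1a wells and within-rat differences), where chance gives about 5%. Among the members this was the AdGFP well of rat 1 for Hif1an (9.29, the others 9.52 to 9.56), and the AdGFP well of rat 1 was likewise low for Arnt (9.82, the others 9.96 to 9.98). The AdGFP well of rat 3 was low for Usp8 (8.83, the others 9.11 to 9.14). The AdHIF1a well of rat 3 was low for Mdm2 (9.51, the others 9.79 to 9.84), Plod2 (10.41, the others 10.54 to 10.55) and P4htm (4.91, the others 5.13 to 5.17), and high for Elob (10.82, the others 10.66 to 10.67). The cause of these values was not tested.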

How the results depend on the processing

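Egln1 and Egln3 kept their direction and their call under all 15 alternatives (1.80 to 1.94 and 2.01 to 2.32), which were no replicate block, a random block, median centring, quantile normalization, dim-probe filters (median or lower quartile), array weights, a trended and robust prior, the mean of all probe sets, a threshold of 0.01, leaving out each rat, and, chosen after seeing the data, a variance prior from all probe sets. The direction of a member could change only with median centring, quantile normalization, array weights or a rat left out. The other alternatives leave the estimate of a member as it is and can change only its call. Each member had 1 probe set, so the mean of all probe sets used the same values for it. Vhl (0.56) missed the threshold of 0.01, and without a rat gave 0.48 to 0.69. Hif1an gave -0.32 to -0.17 without a rat. Egln2 gave -0.07 to 0.04, the sign turning without rat 3. Without the rat as a block (no pairing) Egln1, Egln3 and Vhl were still called (Vhl adjusted p = 0.019 in limma) and Egln2 and Hif1an were not, so the block changed no call of a member. The genes called higher numbered 936 after median centring, 794 at 0.01, 1032 with the prior from all probe sets and 921 to 1519 without a rat. Those called lower numbered 1084 at 0.01 and 1196 to 2284 without a rat. The VHL partners had 1 call, Dcun1d1, with the random block, the filter at the median, array weights or the trended prior. The list of 2-oxoglutarate, succinate and fumarate metabolism had 8 calls, but 13 with the random block, 15 with array weights, 4 at 0.01, 5 with the prior from all probe sets and 4 to 13 without a rat. For the other named genes, 383 of the values under alternatives kept direction and side of the threshold, 14 lost a call, 8 gained one and 0 reversed. The cause of these changes was not tested.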

Other observations

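The AdHIF1a wells lay closer together than the AdGFP wells for Egln3 (SD 0.09 against 0.47), Plod2 (0.07 against 0.52), Bhlhe41 (0.13 against 0.43), Cited2 (0.09 against 0.30), Wsb1 (0.06 against 0.30) and Siah2 (0.05 against 0.19), genes picked out after their values were seen. It was not general. Of the 315 genes that were called and at least 2-fold higher, 49.2% had the smaller SD in AdHIF1a wells, beside 43.8% of all 18166 genes and 40.5% of the 321 called and at least 2-fold lower. Vhl went the other way (0.29 against 0.13).

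Of the promoter windows of genes called higher, 29.8% of 1277 held ACGTG, beside 21.3% of 1680 called lower and 21.0% of 11607 not called, and for GCGTG the shares were 52.5%, 46.3% and 37.0%. These shares are a description, since base composition was not matched between the sets.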
